A study of Homo sapiens with 6 samples.

Results

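The RAS-MAP kinase cascade was read at the transcript level through 49 listed genes, from RAS GTPases and their regulators through 3 tiers of kinases to the kinases that MAP kinases switch on. Members were every probe set whose only gene symbol is one of these 49. In all 42 genes were found, on 143 of the 44988 probe sets with 1 symbol, and the other 7 genes were not analysed here. All cells were 786-O, an established line of human renal carcinoma, grown in RPMI medium with fetal bovine serum. The control group (shNC, 3 arrays) is labelled as control, and the other group (shERCC6L, 3 arrays) as carrying a short hairpin RNA (shRNA) against ERCC6L, a DNA translocase of mitosis. The labels give lentivirus as the carrier of that shRNA, and their treatment text names the ERCC6L shRNA for all 6 samples and nothing else for the controls. They say neither how many hairpins were used, nor whether the cells were pools or clones, nor whether the replicates were separate cultures, so the p-values measure the spread between these arrays, which may be technical.

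A MAP kinase cascade is a relay. A signal at the membrane loads RAS with GTP, RAS engages a MAP kinase kinase kinase such as RAF, and phosphate is passed to a MAP kinase kinase and from there to a MAP kinase. The ERK1/2 arm is driven mainly by growth factors, the JNK and p38 arms mainly by stress and cytokines, and the ERK5 arm by both. Most of this control is exerted on proteins by phosphorylation, which these arrays do not measure.

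Values are deposited probe set intensities, here called signal, and differences were taken on log2(signal + 16), always shERCC6L minus shNC. Each gene is given by its brightest probe set over all 6 arrays unless another is named, and a gene was called at a limma p of 0.05 after Benjamini-Hochberg adjustment over 18132 genes. ERCC6L, the target, was lower on every shERCC6L array, with signals of 97.49 to 97.83 against 239.9 to 261.4. Median signals per array lay between 60.04 and 61.56, and arrays correlated at 0.9986 to 0.999 within groups and 0.9931 to 0.9938 across them. Of 14 markers of the renal carcinoma line, 11 were measured and all 11, PAX8, KRT18 and VIM among them, lay at or above the median level of all genes. Their levels were not all steady: 3 of the 11 were called higher and 5 lower, with differences from -0.50 (CDH6) to 0.34 (PAX8). Of 9 measured markers of other cell types 2 lay at or above that median level, EPCAM and CD68. EPCAM and the fibroblast collagen gene COL1A1 fell by 0.43 and 0.38, CD68 rose by 0.23, the leukocyte marker PTPRC was near the bottom of the scale at 7.31 and 7.21, and the part of these markers in the results was not tested.

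Of the 42 genes, 16 were higher (38.1%) and 8 lower (19%) in shERCC6L, where 18.2% of all genes were called higher and 13.4% lower, 31.6% in all. Most members are well expressed. Of the brighter genes, those whose level reaches the median gene's, 32.8% were called higher and 19.6% lower, 52.4% in all. Of the 36 members at that level 14 (38.9%) were higher and 8 (22.2%) lower, so the members' shares lay near those of genes of like level. The median difference of the members was 0.08 against -0.01 over all genes. For the 36 brighter members it was 0.085 against 0.04 over the brighter genes. The 3 arrays of one group lay apart from those of the other for 28 members, or 66.7%, where the share was 43.4% of all genes. Among the 36 brighter members they lay apart for 27, or 75%, beside 64.5% of the brighter genes. Differences were modest, and no member reached 2-fold. Called with at least a 1.5-fold difference were 3 of the 42 members. So were 378 of all 18132 genes (2.08%) and 339 of the 9066 brighter genes. The median absolute difference was 0.192 for the members and 0.075 for all genes. It was 0.218 for the 36 brighter members and 0.137 for the brighter genes. In bulk RNA, fewer cells of a type and less RNA per cell cannot be told apart.

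**Figure D1:**
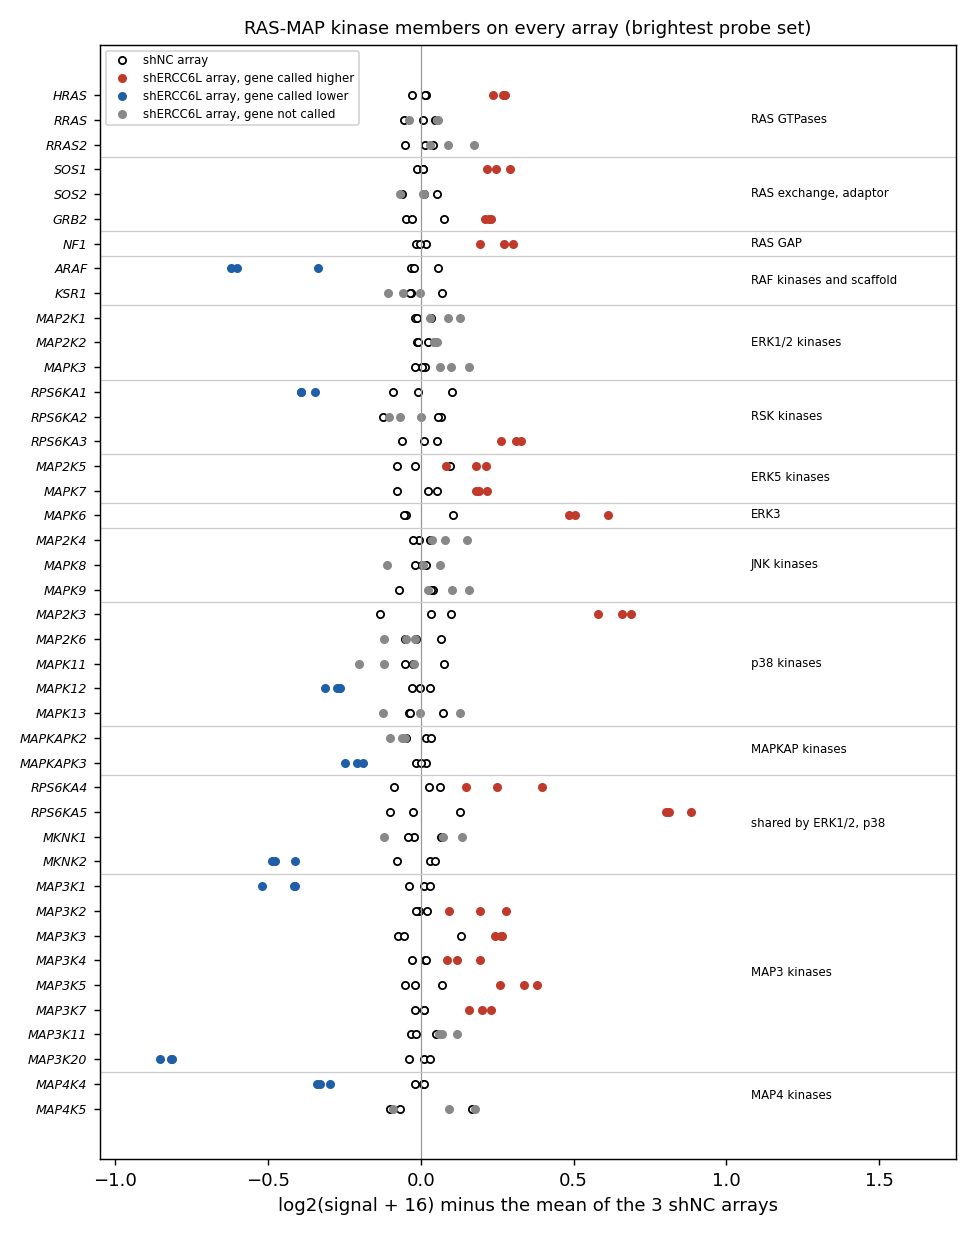
Each row is 1 of the 42 members, in order of role, and each dot 1 array, as log2(signal + 16) minus the mean of the 3 shNC arrays. Open dots are shNC and filled dots shERCC6L, red where the gene was called higher, blue where lower and grey where not called. MAP3K20 and RPS6KA5 lie farthest from 0, at -0.83 and 0.83.

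The 3 members past 1.5-fold stand at different places of the relay: RPS6KA5 and MAP2K3 rose and MAP3K20 fell. RPS6KA5 encodes MSK1, a nuclear kinase switched on by both ERK1/2 and p38 that phosphorylates the transcription factor CREB and histone H3. It read 158.2, 167.3 and 188 in shNC and 309.7, 312.2 and 329 in shERCC6L. The groups lay far apart, at a log2 difference of 0.83 ± 0.06 (SE, n = 3 per group; adjusted p = 9e-06). Of its 4 probe sets 3 rose, by 0.72 to 0.90, and the fourth, at a signal near 6.5, showed 0.02.

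MAP2K3 encodes MKK3, one of the kinases that activate p38. It read 213.3, 179.3 and 203 in shNC and 328.5, 321.9 and 304.3 in shERCC6L on its single probe set. All shERCC6L arrays were above all shNC arrays, by a log2 difference of 0.64 ± 0.06 (SE; adjusted p = 4.9e-05).

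MAP3K20 encodes ZAK, a MAP kinase kinase kinase that senses stalled ribosomes and feeds JNK and p38. Its signal was 544.1, 524.6 and 551.4 in shNC and 299.1, 300 and 291.8 in shERCC6L. This was the largest fall among the members, a log2 difference of -0.83 ± 0.04 (SE; adjusted p = 5.3e-07). Of its 8 probe sets 5 fell, by 0.47 to 0.83, and 3 dimmer ones were not called, at -0.17, -0.17 and -0.02. With the 8 averaged the difference was -0.44 and still called. ZAK is known to occur as isoforms with different ends, and the table does not say which of them each probe set reads.

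For these 3 genes, the members that moved most, the 250 bases before a transcript start listed by RefSeq (GRCh38.p14) are shown. The MAP3K20 window lies inside the annotated gene, whose first base is upstream of it. Short motifs were searched on both strands: the AP-1 motif TGANTCA, bound by the JUN and FOS factors on which JNK and ERK act, the cyclic AMP response element TGACGTCA, bound by CREB, on which MSK kinases act, and the GC box GGGCGG. Matches are in capitals, and RPS6KA5 and MAP2K3 each have another listed start, not shown.
RPS6KA5, chr14:91060642-91060891, minus strand: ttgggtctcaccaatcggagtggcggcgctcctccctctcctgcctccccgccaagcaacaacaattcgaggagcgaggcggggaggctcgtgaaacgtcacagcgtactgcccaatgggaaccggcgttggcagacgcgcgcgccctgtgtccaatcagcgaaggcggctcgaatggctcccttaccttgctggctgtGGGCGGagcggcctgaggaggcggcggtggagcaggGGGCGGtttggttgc
MAP2K3, chr17:21284461-21284710, plus strand: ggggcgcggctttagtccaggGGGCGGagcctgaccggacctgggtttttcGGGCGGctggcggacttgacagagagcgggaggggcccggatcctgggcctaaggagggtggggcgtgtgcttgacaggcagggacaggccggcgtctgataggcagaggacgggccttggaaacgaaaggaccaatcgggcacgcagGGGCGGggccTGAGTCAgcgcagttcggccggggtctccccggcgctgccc
MAP3K20, chr2:173075596-173075845, plus strand: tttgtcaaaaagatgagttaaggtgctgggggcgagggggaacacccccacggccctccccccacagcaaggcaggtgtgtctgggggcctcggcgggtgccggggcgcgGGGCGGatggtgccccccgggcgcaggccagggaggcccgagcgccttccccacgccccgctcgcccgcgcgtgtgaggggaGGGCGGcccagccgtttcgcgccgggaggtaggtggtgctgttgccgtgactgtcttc
The MAP2K3 window held 1 AP-1 match and 3 GC boxes, and the RPS6KA5 and MAP3K20 windows 2 GC boxes each and neither of the other motifs. Over 34943 windows of the same length, 6.59% held the AP-1 motif, 1.63% the cyclic AMP response element and 42.5% the GC box. The 39 members with an entry had 61 windows, of which 4.92%, 1.64% and 67.2% did. These are letters in a window, not evidence of binding.

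At the top of the relay the called members were all higher: 1 of 3 RAS GTPases, 2 of 3 exchange factors and adaptor, and NF1. All of these members belong to the brighter genes, of which 32.8% were called higher and 19.6% lower. Most probe sets of SOS1 and NF1 were not called. Of 22 measured RAS regulators outside the members, 2 were higher and 5 lower. HRAS, a RAS GTPase, read 371.7, 359.2 and 370.2 in shNC and 447.5, 445.4 and 435.2 in shERCC6L. The groups did not overlap, and both of its probe sets rose, by 0.26 and 0.29. RRAS and RRAS2, GTPases related to RAS, were not called at 0.02 and 0.10. GRB2, the adaptor that brings SOS to receptors, rose on both probe sets, by 0.22 and 0.26. Of the exchange factors that load RAS with GTP, SOS1 rose by 0.25 on its brightest probe set but showed -0.02, 0.10 and -0.10 on the other 3, and SOS2 was not called at -0.02.

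NF1, the GTPase-activating protein neurofibromin that returns RAS to its inactive form, is the member with most probe sets, 21. Its brightest rose by 0.26, from a mean signal of 251.3 to 303.3, and 2 very dim ones rose, from 24.59 to 27.91 and from 9.91 to 12.44, while the other 18 were not called, at -0.08 to 0.11. Averaged over its probe sets NF1 showed 0.04 and SOS1 0.06, and neither was called. The brightest probe sets of both genes have IDs ending in _s_at, which Affymetrix uses for probe sets that can match several transcripts. On the brightest probe set ending in neither _s_at nor _x_at the differences were 0.05 for NF1 and -0.02 for SOS1, again without a call.

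In the ERK1/2 arm the kinases at its centre were not called, while members above and below them were, in both directions. Of its 8 measured genes 1 was higher and 2 lower, with a median difference of -0.00. These shares were 12.5% and 25%, where 18.2% of all genes were called higher and 13.4% lower. MAP2K1 and MAP2K2, which encode MEK1 and MEK2, showed 0.08 and 0.05. MAPK3, which encodes ERK1, read 306.2, 303.7 and 298.7 in shNC and 317.1, 339.4 and 325.7 in shERCC6L. Its groups did not overlap, but at 0.11 ± 0.04 (SE) it missed the threshold (adjusted p = 0.053), which it passed in 5 of 15 alternatives, among them that without shERCC6L replicate 1 (0.04). MAP2K2 and MAPK3 each rest on 1 probe set, with an ID ending in _x_at. The alternative without _s_at and _x_at probe sets did not measure them. The brightest MAP2K1 probe set ends in _s_at, and its others, ending in _a_at, were not called at 0.06 and 0.07. KSR1, a scaffold of the arm and one of its dimmest members, was not called at -0.06.

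ARAF, the RAF kinase measured here, fell. Its brightest probe set read 447.7, 419.9 and 423.3 in shNC and 337, 277.9 and 273.8 in shERCC6L. The highest shERCC6L array stayed below the lowest shNC array, at a log2 difference of -0.52 ± 0.07 (SE; adjusted p = 0.00049). Of its 5 probe sets 4 fell, by 0.45 to 0.82. The fifth and dimmest rose, from 21.77, 32.55 and 32.19 to 50.17, 44.21 and 47.21, a difference of 0.50 (adjusted p = 0.0033 over all probe sets).

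The RSK kinases, which ERK1/2 activate, moved apart from each other. RPS6KA1, which encodes RSK1, read 223.1, 209.8 and 242.3 in shNC and 167.4, 173.2 and 167.6 in shERCC6L. It fell by 0.38 ± 0.05 (SE; adjusted p = 0.0004) with no overlap, and all 4 of its probe sets fell, by 0.25 to 0.38. RPS6KA3, which encodes RSK2, read 481.7, 457.4 and 496 in shNC and 597.7, 604.3 and 576.8 in shERCC6L. It rose by 0.30 ± 0.04 (SE; adjusted p = 0.00043), while its other, dimmer probe set showed -0.05, and the average of both was 0.13. RPS6KA2, which encodes RSK3, was not called at -0.06 on its brightest probe set, although 2 of the other 3 fell, by 0.26 and 0.28.

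The JNK arm had no call on the brightest probe sets by limma, and none of its 3 measured genes had an unadjusted p under 0.05. MAPK8, which encodes JNK1, read 330.7, 322.4 and 327.3 in shNC and 301.3, 328.7 and 342.2 in shERCC6L, so that the groups overlapped at -0.01. MAPK9, which encodes JNK2, read 357.3, 387.8 and 385.8 against 383, 405.7 and 421.8, overlapping as well at 0.09. MAP2K4, which encodes MKK4, an activator of both JNK and p38, was not called at 0.09, but its 3 other probe sets all rose, by 0.16, 0.27 and 0.35. With probe sets averaged MAP2K4 was called at 0.22 and MAPK9 at 0.48.

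The MAPK9 average rests on 1 probe set, the dimmest of 4. Its signal was 11.45, 9.41 and 9.61 in shNC, close to the bottom of the scale, and 58.91, 59.73 and 77.54 in shERCC6L. This was the largest difference of all 143 probe sets, 1.63 ± 0.08 on the log2(signal + 16) scale (SE; adjusted p = 3e-06 over all probe sets). The other 3 MAPK9 probe sets, all brighter, showed 0.09, 0.09 and 0.10 and none was called. The table does not say which part of the gene each probe set reads.

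In the p38 arm 1 of 7 measured genes was higher, MAP2K3, and 2 were lower, and the median difference was -0.07. The shares higher and lower were 14.3% and 28.6%, beside 18.2% and 13.4% of all genes. MAPK12, which encodes p38 gamma, read 380.8, 371.8 and 364.4 in shNC and 307.3, 304.7 and 296.5 in shERCC6L. It fell by 0.28 ± 0.03 (SE; adjusted p = 0.00024) with no overlap, and 2 of its 3 probe sets fell. Next to it in the genome lies MAPK11, which encodes p38 beta and read 86.81, 85.02 and 94.32 in shNC and 80.18, 87.04 and 74.88 in shERCC6L. Its groups overlapped and it was not called at -0.12, although another of its 3 probe sets fell by 0.24 and the average of the 3 was called, at -0.16 (adjusted p = 0.0057).

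MAPK13, which encodes p38 delta, was dim, with 22.93, 23.02 and 26.09 against 20.7, 23.94 and 27.75, and its groups overlapped at 0.00. MAP2K6, which encodes MKK6, the partner of MKK3 in activating p38, was also dim and was not called at -0.06. Of the kinases that p38 activates, MAPKAPK3 fell on both probe sets, by 0.21 and 0.18, from 807, 827.1 and 816.4 to 685.7, 714.8 and 704.6. MAPKAPK2 showed -0.07 and was not called.

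**Figure D2:**
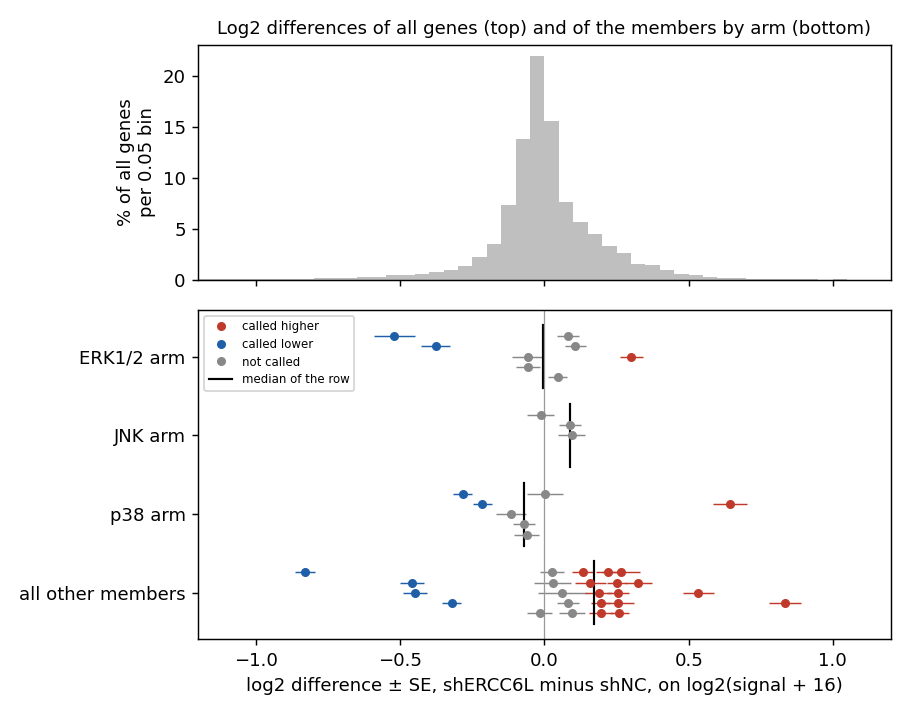
The upper panel shows the percent of all 18132 genes in bins of 0.05 of the log2 difference. The lower panel gives each measured member with its SE (8 in the ERK1/2 arm, 3 in the JNK arm, 7 in the p38 arm and 24 others), red where called higher, blue where lower, grey where not called, and a vertical line at the median of each row, at -0.00, 0.09, -0.07 and 0.17.

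Set side by side, the arms differed little in their medians, at -0.00 for ERK1/2, 0.09 for JNK and -0.07 for p38, and these differences were not tested, since genes are not replicates. Called members were 3 of 8, 0 of 3 and 3 of 7, where 31.6% of all genes and 52.4% of the brighter genes were called. Across the terminal MAP kinases of these arms MAPK12 was the only one called of the 6 measured members, and it fell. MAPK10, which encodes JNK3 and is not among the members, was called lower and is described with the other kinases of the cascade. The 24 members outside the 3 arms had 14 higher and 4 lower, with a median of 0.17. Of these 24, 22 belong to the brighter genes, of which 32.8% were higher and 19.6% lower, and of the arms' members 7 of 8, 3 of 3 and 4 of 7 do.

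Both members of the ERK5 arm were called higher, on weak signals. MAPK7, which encodes ERK5, read 67.52, 61.77 and 69.24 in shNC and 79.34, 77.08 and 77.75 in shERCC6L. The groups lay apart at 0.20 ± 0.04 (SE; adjusted p = 0.0058). MAP2K5, which encodes its activator MEK5, rose by 0.16 with overlapping groups and just passed (adjusted p = 0.048), while in the fit over all probe sets the same probe set was not called (0.056). It lost the call in 10 of 16 alternatives, with adjusted p from 0.052 to 0.3. Among them were those without shNC replicate 1 (0.16) or 3 (0.13) and without shERCC6L replicate 1 (0.14) or 3 (0.11). The other MAP2K5 probe sets, all dimmer, were not called, at 0.05, -0.04 and -0.001. The average over its 4 probe sets was 0.04 and was not called. MAPK6, which encodes ERK3, an atypical MAP kinase outside the MEK-driven arms, read 212.1, 210.9 and 237.7 in shNC and 313.8, 344.8 and 318.6 in shERCC6L. It rose by 0.53 ± 0.05 (SE; adjusted p = 8.1e-05) on its only probe set, with no overlap.

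Of the kinases shared by ERK1/2 and p38, both MSK genes rose, MKNK1 was not called and the probe sets of MKNK2 were divided. Beside RPS6KA5, RPS6KA4, which encodes MSK2, read 184, 168.9 and 189.1 in shNC and 242.6, 217.6 and 201.6 in shERCC6L. The groups lay apart at 0.27 ± 0.07 (SE; adjusted p = 0.012), and 2 of its 4 probe sets rose. MKNK1, which encodes MNK1, a kinase of a cap-binding translation initiation factor, was not called on any of its 4 probe sets, at -0.04 to 0.10.

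MKNK2, which encodes MNK2, had bright probe sets that moved in opposite directions. On the brightest the signal went from 867.6, 803.9 and 877.4 to 601.1, 634.1 and 605.3, a fall of 0.46 ± 0.04 (SE; adjusted p = 5.5e-05). On the next brightest it went from 623.1, 574.1 and 631.4 to 749, 800.6 and 766.3, a rise of 0.33 ± 0.05 (SE; adjusted p = 0.00072 over all probe sets). In both cases the groups lay apart, and the 3 remaining probe sets, with IDs ending in _x_at, were not called at -0.06 to 0.03. The log2 ratio of the second to the first was -0.47 ± 0.01 (SD, n = 3) in shNC and 0.32 ± 0.01 in shERCC6L, a shift of 0.79, given as a description. Averaged over all 5 probe sets MKNK2 showed -0.03 and was not called. MKNK2 transcripts are known to be spliced to alternative ends that encode different isoforms, and which of them each probe set reads is not given in the sources used here.

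Higher up, 5 of the 8 MAP3 kinases were higher and 2 lower, and for all 8 the groups did not overlap. All 8 belong to the brighter genes, of which 52.4% were called and 64.5% had groups apart, and MAP3 kinases are the largest tier. MAP3K1, which encodes MEKK1, a kinase and ubiquitin ligase upstream of JNK and ERK, read 408.7, 423.2 and 429 in shNC and 310.8, 288.1 and 312.2 in shERCC6L. It fell by 0.45 ± 0.04 (SE; adjusted p = 4.7e-05), and both of its probe sets fell. MAP3K5, which encodes ASK1, the kinase that senses oxidative stress, read 225.5, 246.4 and 231 in shNC and 283.3, 300 and 309.7 in shERCC6L. It rose by 0.33 ± 0.05 (SE; adjusted p = 0.00058), and both probe sets rose, by 0.33 and 0.43.

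MAP3K2 and MAP3K3, which encode MEKK2 and MEKK3, the kinases above MEK5, rose by 0.19 and 0.26. All 3 MAP3K2 probe sets rose, the dimmer ones by more, 0.47 and 0.38, and 2 of 3 MAP3K3 probe sets did. MAP3K7, which encodes TAK1, a kinase of cytokine and TGF-beta signalling, rose by 0.19 ± 0.03 (SE; adjusted p = 0.0022), from 606.5, 605.6 and 593.5 to 673.1, 708 and 693.6. Of its 7 probe sets 5 rose, by 0.17 to 0.21. MAP3K4, which encodes MEKK4, a kinase upstream of JNK and p38, rose by 0.13 on its single probe set (adjusted p = 0.028), and MAP3K11, which encodes MLK3, was not called at 0.08. Leaving out single arrays ended the MAP3K4 call in 5 of 6 cases (adjusted p from 0.05 to 0.092), all but that without shERCC6L replicate 2, as did quantile normalization (0.077) and a pseudocount of 1 (0.057). The MAP3K2 call ended without shNC replicate 3 (0.053) or shERCC6L replicate 2 (0.051).

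One of the MAP4 kinases, which act above the MAP3 kinases, was called. MAP4K4, linked to cell migration and adhesion turnover, read 506.6, 507 and 497.3 in shNC and 397.8, 394.4 and 406.9 in shERCC6L. It fell by 0.32 ± 0.03 (SE; adjusted p = 8.2e-05), with no overlap between groups. Here too the probe sets divided: 3 of 5 fell, by 0.32, 0.34 and 0.13, and the other 2 showed 0.07 and 0.11 and were not called. The average over the 5 was -0.12. MAP4K5 was not called at 0.06.

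**Figure D3:**
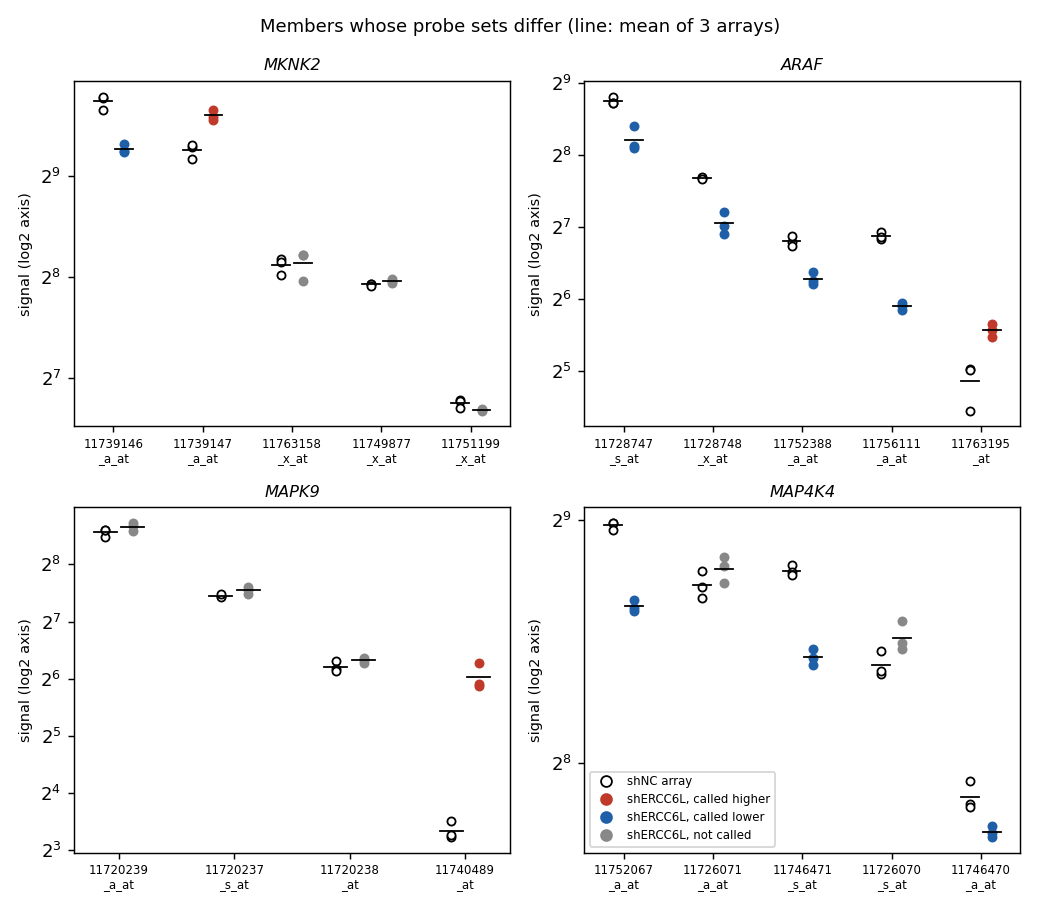
Signal on each array, on a log2 axis, for every probe set of 4 members, ordered by brightness. Open dots are shNC, filled dots shERCC6L (red called higher, blue lower, grey not called) and lines group means. In MKNK2 the brightest pair cross, in ARAF 4 probe sets fall and 1 rises, in MAPK9 only the dimmest probe set departs, and in MAP4K4 3 of 5 fall.

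Over all probe sets, 36 of the members' 143 were called higher and 26 lower, where 16.8% of the 49293 probe sets tested were higher and 11.9% lower, 28.7% in all. Calls depended on brightness: 56.1% of the 98 member probe sets at or above the median level were called and 15.6% of the 45 below it, against 48.1% and 9.38% of all probe sets. Of the 34 members with several probe sets, 7 had all of them called in 1 direction, 14 had some called in 1 direction, 11 had none called and 2, ARAF and MKNK2, had calls in both directions. That is 5.88% of these members, beside 1.33% of the 11734 genes with several probe sets. These shares were not matched for level or for the number of probe sets per gene, and the first rests on only 2 genes. The 7 in full accord were HRAS, GRB2, RPS6KA1, MAPKAPK3, MAP3K1, MAP3K2 and MAP3K5.

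**Figure D4:**
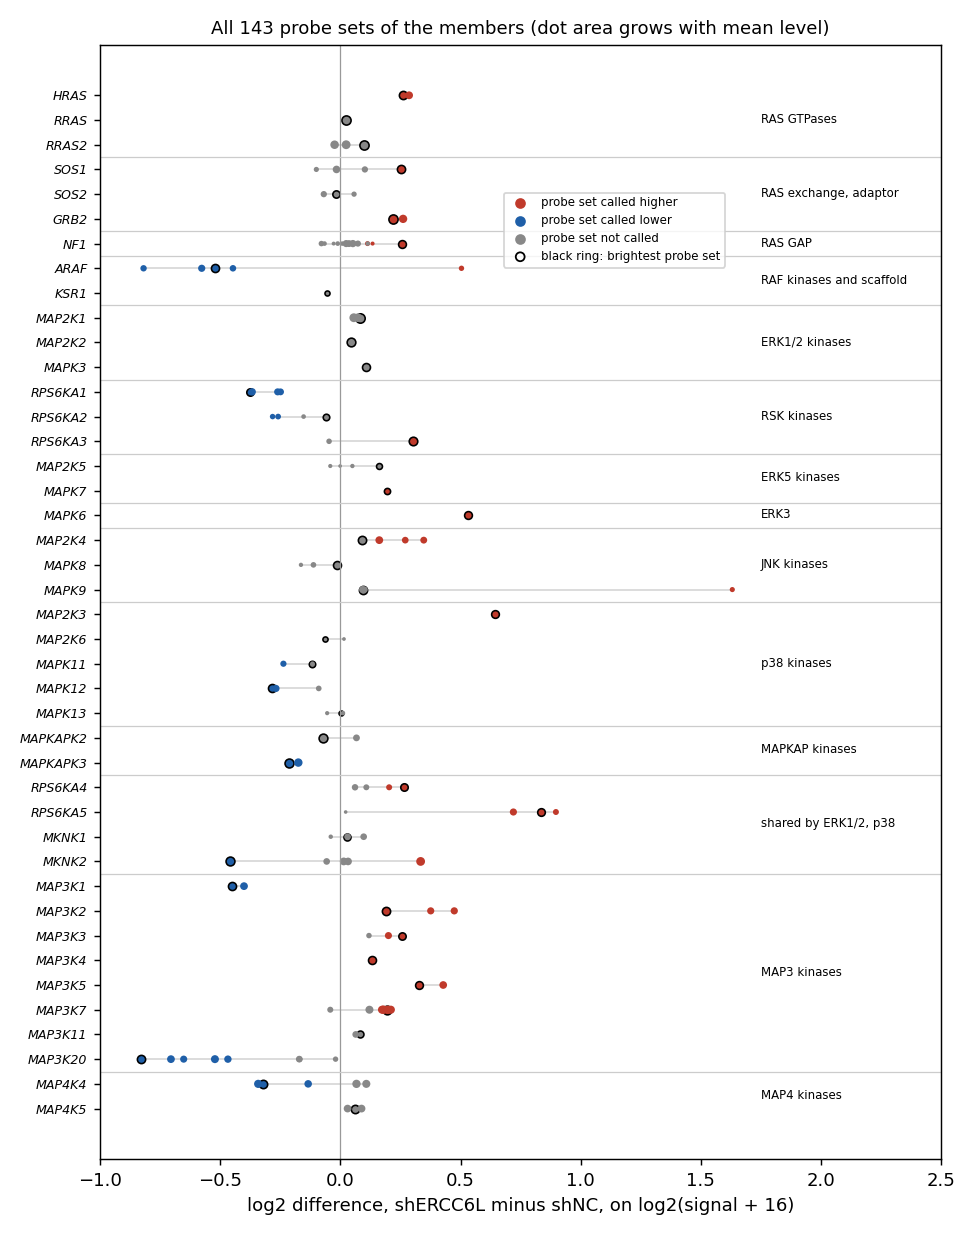
Each dot is 1 of the 143 probe sets, placed by its log2 difference (shERCC6L minus shNC) in the row of its gene. Dot area grows with mean level, a black ring marks the brightest probe set, and red, blue and grey mark probe sets called higher, lower and not called. The single dot at 1.63 is the dim MAPK9 probe set.

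Genes that work with the members but are not among them were read from 4 lists. Of all genes 18.2% were called higher and 13.4% lower. The shares were 14.3% and 14.3% for the other cascade kinases and 14.3% and 23.8% for the scaffolds and binding partners. They were 9.09% and 22.7% for the RAS regulators and 26.7% and 6.67% for the phosphatases. Of 21 other kinases of the cascade 3 were higher and 3 lower, with a median of -0.00. MAPK10, which encodes JNK3, fell from 134.4, 127.5 and 133 to 46.59, 56.38 and 55.98, by 1.10 ± 0.06 (SE; adjusted p = 1.7e-06). That is more than the brightest probe set of any member, and its other probe set fell as well, by 0.56. NLK, a MAP kinase-related kinase of WNT signalling, fell by 0.38, and MAPKAPK5 and TAOK3 rose by 0.30 and 0.17. All 3 NLK probe sets fell, and 1 of 2 TAOK3 probe sets was called.

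Among 21 measured scaffolds and binding partners 3 were higher and 5 lower, with a median of -0.01. LAMTOR3, the scaffold that holds MEK1 and ERK1 at endosomes, fell from 381.6, 384.6 and 392 to 165.4, 172 and 177.4, by 1.10 ± 0.04 (SE; adjusted p = 1.6e-07), and both of its probe sets fell. TAB2, the adaptor of TAK1, fell by 0.75 on its brightest of 4 probe sets, all of which fell, while the kinase gene itself, MAP3K7, rose. GADD45B, a stress protein that binds MAP kinase kinase kinases, fell by 0.63 and the pseudokinase gene TRIB1 by 0.33. Of the GADD45B probe sets 3 of 4 were called lower, and of the TRIB1 probe sets both.

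Of 22 measured regulators of RAS 2 were higher and 5 lower, with a median of -0.02. SHC1, the adaptor that links receptors to GRB2, fell from 1379, 1334 and 1359 to 865.2, 889.1 and 843.9, by 0.64 ± 0.04 (SE; adjusted p = 2.5e-06), on all 4 probe sets, whereas GRB2 rose. The RAS-related GTPase gene MRAS fell by 0.49, the inhibitor gene SPRED2 by 0.38, and RASA3, a GTPase-activating protein, rose by 0.40. Probe sets called in these directions were 3 of 3 for MRAS, 2 of 3 for SPRED2 and 4 of 5 for RASA3. Of 15 MAP kinase phosphatases 4 were higher and 1 lower, with a median of 0.03. DUSP6 and DUSP5, whose products act on ERK1/2, rose by 1.19 and 0.81, DUSP10 rose by 0.19 and DUSP16, whose product acts on JNK, fell by 0.17. All 4 DUSP6 probe sets and the only DUSP5 one were called higher. For DUSP10 3 of 4 were called higher, and for DUSP16 2 of 3 lower.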

How the data were processed

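Total RNA of 786-O cells was read on 6 Affymetrix arrays, 3 per group. The deposited values are linear intensities, 1 per probe set and array, made with Affymetrix Expression Console per the submitters' processing notes. Its version and how it corrected, normalized and summarized the probes is not given in the sources used here, and the file holds no detection calls, so background is unknown for dim probe sets. The number of arrays limits the precision.

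Of 49395 probe sets 102 were controls, 44988 had 1 symbol in GEO's platform annotation, 1832 several and 2473 none. The 42 members found matched RefSeq (GRCh38.p14) by gene number with equal symbols. Signals were transformed to log2(signal + 16), which understates changes of dim genes, and each gene's probe set with the highest mean was kept. The 2 groups were tested against each other, 2-sided and without a block, by lmFit and eBayes of limma 3.58.1 under R 4.3.3 (residual degrees of freedom 4, prior 4.95), adjusted by Benjamini-Hochberg over 18132 genes, and again over 49293 probe sets. Both fits were run on simulated data with normal noise drawn separately for each array, so shared technical effects were not tested. Recovery was required only for differences larger than that of any member's brightest probe set. Arrays are given for members called with a difference of at least 0.3, for opposing probe sets, for terminal MAP kinases and for others where they show a result, and the 4 smallest p-values are named in each list of other pathway genes. MAPK9 and MAP4K4 were shown by probe set after their values were seen. Members and lists were chosen with earlier results of these data known. Deviations of same-numbered arrays correlated at 0.24 for replicate 1, -0.14 for replicate 2 and -0.01 for replicate 3. These arrays were not treated as pairs in the main fit, and a replicate block was tried as an alternative. Some genes are not reported here.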

Additional observations from a re-analysis of the deposited data

How the results depend on the processing

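The alternatives were averaged probe sets, probe sets ending in neither _s_at nor _x_at, pseudocounts of 1 and 64, quantile normalization, a replicate block, array weights, median centring, robust estimation with a trend on level, dropping the dimmest 25% of genes, and each array left out. Across these 16, 13 to 17 members were higher (13 to 15 without 1 array) and 8 or 9 lower, and with the replicate block 15 and 8. No member call turned to the other direction, and 18 of 24 held under every alternative that measured the gene. The exceptions were MAP2K5, MAP3K2, MAP3K4, SOS1, NF1 and MKNK2. With probe sets averaged the called members were 5 in the ERK1/2 arm, 2 in the JNK arm and 4 in the p38 arm, with RPS6KA2, MAPK3, MAP2K4, MAPK9 and MAPK11 gained. The replicate block ended the MAP2K5 call (adjusted p = 0.085) and no other member's. Beside those named above, averaging moved RPS6KA4 to 0.16 and MAP3K2 to 0.35, and a pseudocount of 64 moved MAPK7 to 0.13. ERCC6L lay between -1.34 and -0.95. Dim probe sets limit what can be said of MAPK13, MAP2K6 and KSR1.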
